A study of Mus musculus with 9 samples.

Results

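Cytosolic ribosomal protein genes were read here in mouse cortical neurons in which Tdp-43 had been knocked down. The genes were taken by symbol from the platform annotation: Rpl or Rps followed by a digit, or Rplp, without the S6 kinases (Rps6k), on probe sets that name 1 gene. This gave 67 genes, all with a value, of 20144 genes measured. By role, 36 encode large subunit proteins, 3 the stalk of the large subunit and 19 small subunit proteins. A further 7 are paralogs, close relatives of another ribosomal protein gene, and the last 2 are Rps19bp1, whose product binds the small subunit protein Rps19, and Rpl32-ps, a symbol of the pseudogene type. Ribosomal protein genes outside these 67 are not analysed here, apart from those of a separate list below.

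Primary neurons came from the cortex of C57BL/6 embryos on embryonic day 15 and were treated with AraC, which kills dividing cells. On culture day 5 they were infected for 4 h with a lentivirus for a short hairpin RNA: shTdp-43-1 or shTdp-43-2, both against mouse Tdp-43, or the control hairpin shCont. After 6 further days, on day 11, total RNA was taken, and 100 ng was labelled for each of 9 Affymetrix Mouse Exon 1.0 ST arrays, 3 per hairpin. The series' design text names motor neurons and counts the 11 days from transfection, whereas every sample label names cortical neurons, and the sample labels are used here. The labels name no promoter or cell type for the hairpins, and the share of cells infected is not given. Nothing says that the 3 arrays of a group came from separate cultures, so p-values measure the spread between these arrays, which may be technical.

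The cytosolic ribosome joins a small subunit, which reads the mRNA, to a large subunit, which forms the peptide bond. Each subunit is an RNA core held by a set of proteins, most of them small, basic and needed in equal numbers, and their genes are known to be expressed together. Mammalian ribosomal protein mRNAs belong to the TOP class: they begin with a C and a run of pyrimidines, through which the mTOR pathway and the protein Larp1 set their translation and stability. In neurons such mRNAs are found in axons and dendrites as well as in the cell body. Tdp-43, encoded by Tardbp, is an RNA-binding protein of splicing and mRNA stability.

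Each gene is given by the average of its probe sets on the log2 scale of the authors' RMA values, and a change is a difference of such averages. The 67 genes rested on 441 probe sets, with a median of 5 and a range from 1 to 26 per gene, and 8 genes rested on 1 probe set. Probe sets with a 9-array mean below 6.07, the table's median, were left out. The dimmest member probe set used had a mean of 6.09 (Rpl23) and the brightest left out one of 6.07 (Rps25). Gene means ran from 6.56 for Rpl35a to 13.7 for Rpl32, and 41 of the 67 had a mean of 10 or more. Ribosomal protein genes have many near-identical processed copies in the genome, and how far a probe set also reads those copies was not tested. A further 88 probe sets name a ribosomal protein gene beside another gene and were not used.

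Array medians over all genes lay between 8.45 and 8.58, and arrays of one group correlated across genes at 0.979 or more. Tardbp, on 16 probe sets, had log2 values of 7.84, 8.23 and 8.55 with shTdp-43-1 and 8.22, 8.58 and 7.90 with shTdp-43-2, against 9.77, 9.94 and 10.06 with shCont. It fell to 30.4% of the shCont level with shTdp-43-1 (limma adjusted p = 0.00231) and to 30.9% with shTdp-43-2 (limma adjusted p = 0.000773). The 5 neuronal markers measured of 6 listed (Rbfox3 is not among them) averaged between 11.95 and 12.10 on every array, and 0 were called by limma in either comparison, also before adjustment. Among 8 fibroblast and pericyte markers 3 fell with shTdp-43-1 and 4 with shTdp-43-2. Their mean log2 value was 8.44 to 8.54 with shTdp-43-1 and 8.44 to 8.51 with shTdp-43-2, against 8.78 to 8.86 with shCont. The astrocyte marker Aqp4 fell with both hairpins, and Slc1a2 fell with shTdp-43-2 (-0.35, limma adjusted p = 0.0437), so that 2 of 8 astrocyte markers were called lower with that hairpin. The mean of the 8 astrocyte markers was 10.54 to 10.63 with shTdp-43-1, 10.47 to 10.56 with shTdp-43-2 and 10.59 to 10.79 with shCont. The part of these other cells in the results below was not tested, and fewer cells of a type and less RNA per cell cannot be told apart.

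The start regions were searched for letters known from this class of genes. RefSeq promoters (GRCm38.p6) were matched for 52 of the 67 genes and for 27025 genes in all. Only the first listed start of each gene was used, and other starts were not searched. A run of 8 or more C or T within 20 bases of the start, read in the direction of transcription, was present in 23 of the 52 (44.2%), against 15.9% of all promoters. CTTTCC, read in the same direction from 70 bases before to 30 bases after the start, was present in 9 of 52 (17.3%), against 4.68%. CCGGAAG, a sequence bound by ETS factors, was found on either strand of the 300 bases around the start in 20 of 52 (38.5%), against 9.12%. TATAAA, read in the direction of transcription in the window used for CTTTCC, was found in 4 of 52 (7.69%), against 3.93%. Windows of 100 bases, 70 before and 30 after the start on the gene's own strand, are printed for 5 genes. They show how the C or T run sits in each. The rule took members called in any comparison and the 3 with the lowest change with shTdp-43-1. Rpl22 and Rps15a were taken for their low change and were not called in the main fit. Rpl8 and Rps4y2, called with both hairpins, also met the rule but had no matched promoter. Capitals mark the longest run of C or T. The windows lie at chr4:152325656-152325755 on the plus strand for Rpl22, chr5:115559397-115559496 on the plus strand for Rplp0, chr7:118116118-118116217 on the minus strand for Rps15a, chr14:24490608-24490707 on the plus strand for Rps24 and chr17:46782627-46782726 on the minus strand for Rpl7l1.
Rpl22: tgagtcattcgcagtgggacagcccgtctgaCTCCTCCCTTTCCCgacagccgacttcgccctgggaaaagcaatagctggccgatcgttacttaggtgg
Rplp0: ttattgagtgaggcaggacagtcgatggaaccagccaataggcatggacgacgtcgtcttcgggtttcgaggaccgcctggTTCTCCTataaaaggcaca
Rps15a: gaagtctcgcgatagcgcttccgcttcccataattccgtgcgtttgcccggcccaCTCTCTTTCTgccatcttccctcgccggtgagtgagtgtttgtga
Rps24: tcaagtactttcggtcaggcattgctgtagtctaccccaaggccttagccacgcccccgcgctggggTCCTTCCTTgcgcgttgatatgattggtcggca
Rpl7l1: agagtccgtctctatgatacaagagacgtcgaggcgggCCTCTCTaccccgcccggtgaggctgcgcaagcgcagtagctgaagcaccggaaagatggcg
The run is 14 bases long in Rpl22, holds CTTTCC and begins 39 bases before the annotated start, and that of Rpl7l1, of 7 bases, begins 32 bases before it. Both lie upstream of the annotated mRNA and more than 20 bases from its start. The run of Rps15a (10 bases) begins 15 bases before the start, that of Rps24 (9 bases) 3 bases before it and that of Rplp0 (7 bases) 11 bases after it. A match describes these letters only and is not evidence of a site in use.

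Few ribosomal protein genes were called with either hairpin, and most changes were small. With shTdp-43-1, 3 of the 67 genes passed the test at a limma adjusted p under 0.05. The paralog Rps4y2 rose (1 of 67, 1.49%, against 3.27% of all genes called higher), and Rpl8 and Rplp0 fell (2 of 67, 2.99%, against 3.36% of all genes called lower). With shTdp-43-2, Rps4y2 and Rpl7l1 rose (2 of 67, 2.99%, against 5.57% called higher among all genes) and Rpl8 fell (1 of 67, 1.49%, against 9.92% called lower). In this fit these shares were below those of all genes, but each rested on 1 or 2 genes. The share called lower with shTdp-43-1 was close to that of all genes. When limma's spread was allowed to follow intensity, as given below, that share was above the share of all genes. Centring each array on its own median turned the all-gene split with shTdp-43-2 to 1826 higher and 1663 lower, against 1123 and 1999 without centring. The 95% interval of the change lay within 1.5-fold either way for 58 of the 67 genes with shTdp-43-1 and for 59 with shTdp-43-2 (86.6% and 88.1%, against 77.8% and 74.3% of all genes).

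**Figure D1:**
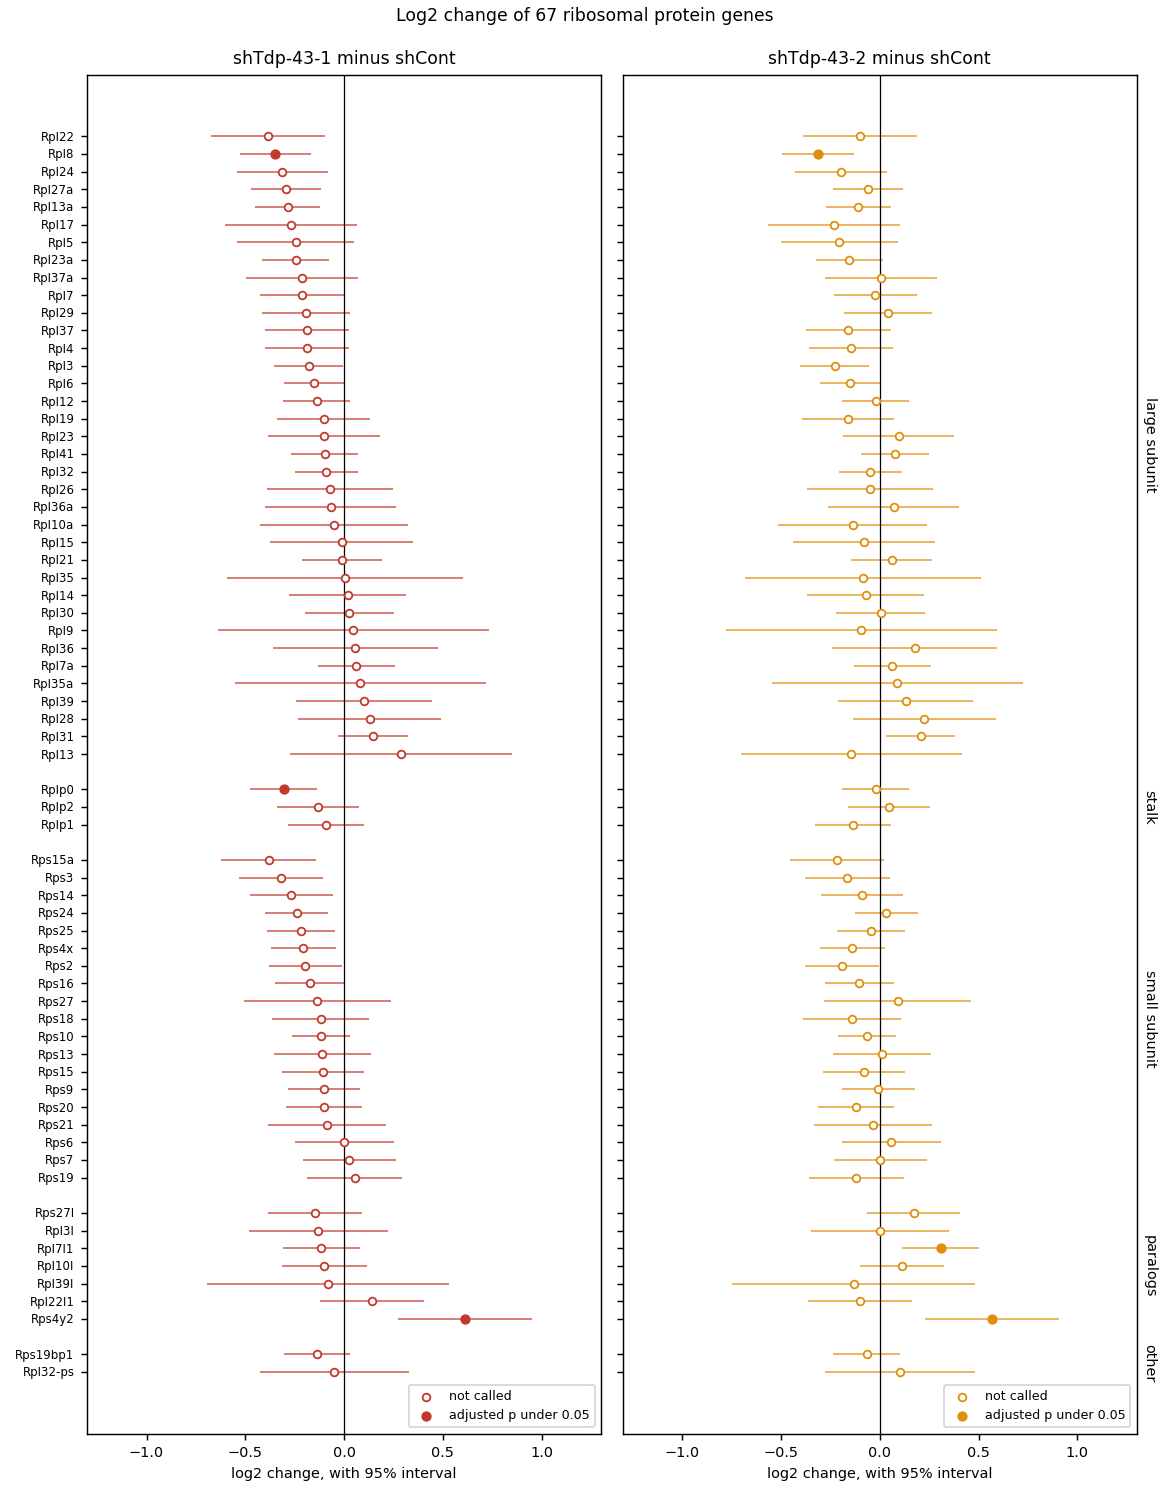
Log2 change of each of the 67 ribosomal protein genes with shTdp-43-1 (left panel) and shTdp-43-2 (right panel) relative to shCont. Points are limma estimates, lines their 95% intervals, and filled points passed an adjusted p under 0.05. Genes are grouped by role and ordered by the change with shTdp-43-1. Most points of the left panel lie a little below 0, and Rps4y2 is the highest point of both panels.

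As a list the genes were slightly lower with shTdp-43-1. The median change was -0.11, which is 92.7% of the shCont level, and 51 of 67 changes were negative. Over all genes the median was 0.02 and 46.1% were negative. Over the 4433 genes with a mean of 10 or more it was -0.05, with 62.3% negative, while the 41 ribosomal protein genes as bright as that had a median of -0.14, with 36 negative. With shTdp-43-2 the median of the 67 was -0.06, or 96.0% of the shCont level, and 42 were negative, against 0.00 and 49.3% over all genes. That median became 0.0070 when each array was centred on its own median, a scaling that also moved the all-gene median, to 0.07. Among genes with a mean of 10 or more the all-gene median with shTdp-43-2 was -0.03, and that of the bright ribosomal protein genes was -0.06. The comparisons with shCont share the same 3 control arrays.

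**Figure D2:**
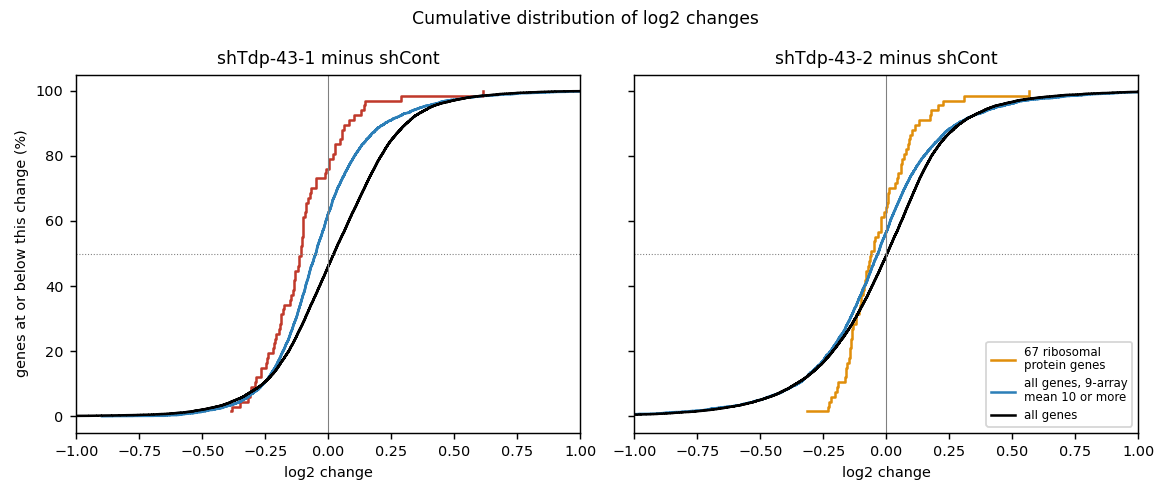
Cumulative distribution of the log2 change with shTdp-43-1 (left) and shTdp-43-2 (right) relative to shCont. Coloured steps are the 67 ribosomal protein genes, blue lines all genes with a mean of 10 or more over the 9 arrays, and black lines all 20144 genes. The steps cross the dotted 50% line at -0.11 on the left and at -0.06 on the right.

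The subunits had similar medians. Large subunit genes had a median change of -0.10 with shTdp-43-1 and -0.06 with shTdp-43-2, and small subunit genes one of -0.12 and -0.08. The 3 stalk genes had medians of -0.13 and -0.02. The 7 paralogs had -0.10 and 0.11. Array by array, the median deviation of the 67 genes from the shCont mean was -0.15, -0.08 and -0.18 with shTdp-43-1 and -0.04, -0.07 and -0.03 with shTdp-43-2, against -0.02, -0.03 and 0.05 with shCont. All 3 shTdp-43-1 arrays lay below all 3 shCont arrays, whereas shTdp-43-2 replicate 3 lay within the shCont range. The number of genes below their shCont mean was 50, 39 and 56 with shTdp-43-1 and 44, 41 and 36 with shTdp-43-2, against 36, 40 and 18 with shCont. The count with shTdp-43-1 replicate 2, 39, was thus below that of shCont replicate 2. The shCont arrays form the mean they are measured against, so their deviations cancel out for each gene. Their medians and counts are held by this, unlike those of the knockdown arrays.

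**Figure D3:**
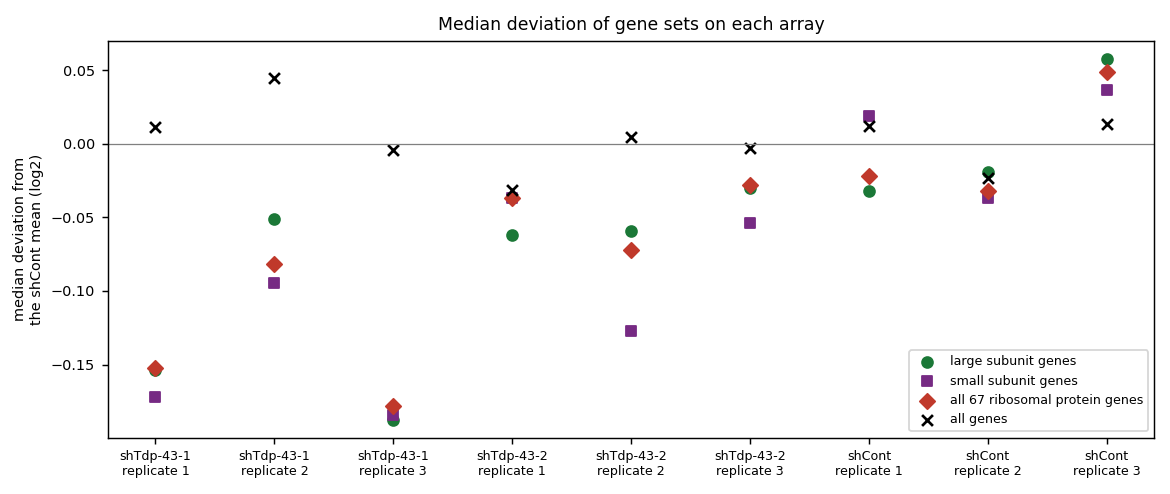
Median deviation from the shCont mean (log2) on each of the 9 arrays, for large subunit genes (circles), small subunit genes (squares), all 67 ribosomal protein genes (diamonds) and all genes (crosses). The 3 shTdp-43-1 arrays show the diamonds between -0.18 and -0.08, while the crosses there lie between -0.0040 and 0.04.

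The arrays were also compared without a fit. With shTdp-43-1, 21 of 67 genes (31.3%) had all 3 arrays below all shCont arrays, against 15.6% of all genes, and 1 (1.49%) had all 3 above, against 16.5%. The 21 were 10 large subunit genes, 9 small subunit genes, Rplp0 and Rps19bp1. With shTdp-43-2, 10 genes (14.9%) lay below all shCont arrays, against 20.3% of all genes, and 3 (4.48%) above, against 14.1%. When limma's spread was allowed to follow intensity, with a robust prior, 10 genes were called with shTdp-43-1 rather than 3. Rps4y2 was then called higher (770 genes, 3.82% of all, were called higher), and Rpl8, Rplp0, Rps15a, Rps3, Rpl27a, Rpl13a, Rpl23a, Rps24 and Rps4x were called lower (9 of 67, against 4.89% of all genes called lower). With shTdp-43-2 it called 4: Rps4y2 and Rpl7l1 higher (6.43% of all genes called higher), and Rpl8 and Rpl3 lower (11.6% called lower).

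Among the large subunit genes, Rpl8 was called with both hairpins. Its product lies close to the site of peptide bond formation. Rpl8 had log2 values of 10.49, 10.28 and 10.32 with shTdp-43-1 and 10.37, 10.41 and 10.41 with shTdp-43-2, against 10.69, 10.78 and 10.67 with shCont. Both sets of knockdown arrays lay below every shCont array, and they overlapped each other. With shTdp-43-1 it fell to 78.5% of shCont (-0.35 ± 0.081 SE; adjusted p = 0.0343 in limma). With shTdp-43-2 it fell to 80.5% of shCont (-0.31 ± 0.081 SE; adjusted p = 0.0277 in limma). Between the hairpins Rpl8 differed by 0.04 (95% interval -0.15 to 0.22). With shTdp-43-1 the call was lost without any one of the shCont arrays (adjusted p 0.0743 to 0.122), shTdp-43-1 replicate 2 or 3 (0.120 and 0.108) or shTdp-43-2 replicate 1 (0.0523). With shTdp-43-2 it was lost without any one of the shCont arrays (0.0573 to 0.102) or of the shTdp-43-2 arrays (0.0555 to 0.0892). It was also lost with medians of probe sets (0.0814 with shTdp-43-1 and 0.0868 with shTdp-43-2), with shTdp-43-1 and shCont fitted alone (0.0622), and with centred arrays for shTdp-43-2 (0.0604).

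**Figure D4:**
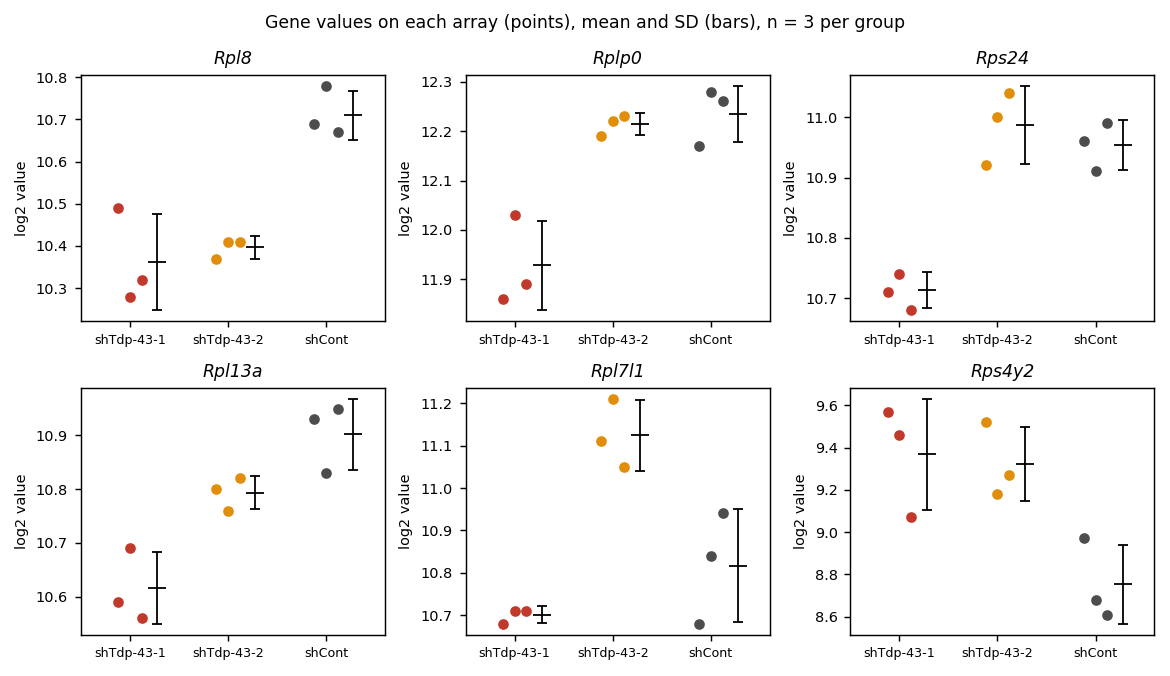
Log2 gene values of 6 ribosomal protein genes on each array, with the mean and SD of each group beside the points (n = 3). In the Rpl8 panel the points of both hairpins lie below the 3 shCont points, in the Rps4y2 panel they lie above them, and each panel has its own vertical range.

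The lowest change of any large subunit gene with shTdp-43-1 was that of Rpl22, an RNA-binding protein on the outer face of the ribosome. Rpl22 stood at 9.78, 9.62 and 9.55 with shTdp-43-1 and at 10.12, 9.95 and 9.74 with shTdp-43-2, against 10.22, 9.82 and 10.06 with shCont. Only the shTdp-43-1 arrays lay below all shCont arrays. The change of -0.39 ± 0.13 SE did not pass the test (limma adjusted p = 0.106), nor did that of -0.10 with shTdp-43-2 (0.665). Rpl13a, which in human cells can leave the ribosome and silence mRNAs, missed the threshold by little with shTdp-43-1. Its values were 10.59, 10.69 and 10.56 with shTdp-43-1 and 10.80, 10.76 and 10.82 with shTdp-43-2, against 10.93, 10.83 and 10.95 with shCont. The 3 groups did not overlap, with shTdp-43-1 lowest and shCont highest. The change was -0.29 with shTdp-43-1 (limma adjusted p = 0.0502) and -0.11 with shTdp-43-2 (0.383).

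The lowest changes of large subunit genes with shTdp-43-2 after Rpl8 were those of Rpl17 and Rpl3, and neither passed the test. Rpl17 had log2 values of 8.46, 8.95 and 8.74 with shTdp-43-1 and 8.60, 9.02 and 8.63 with shTdp-43-2, against 8.87, 9.10 and 8.98 with shCont, and all groups overlapped. Its changes were -0.27 and -0.23 (limma adjusted p = 0.305 and 0.355). Rpl3, a protein whose extension reaches towards the peptide bond site, is described with its paralog below. At the other end, Rpl13 and Rpl31 had the highest changes of subunit genes with shTdp-43-1, at 0.29 ± 0.25 SE (limma adjusted p = 0.502) and 0.14 ± 0.079 SE (0.294). Rpl28 had the highest of subunit genes with shTdp-43-2, at 0.23 ± 0.16 SE (limma adjusted p = 0.409). Rpl13 and Rpl28 rest on 1 probe set each. Rpl31 read 8.31, 8.35 and 8.17 with shTdp-43-1 and 8.31, 8.35 and 8.35 with shTdp-43-2, against 8.10, 8.09 and 8.21 with shCont, so that only the shTdp-43-2 arrays lay above all of shCont. The remaining large subunit genes had changes between -0.31 and 0.10 with shTdp-43-1 and between -0.20 and 0.18 with shTdp-43-2.

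The stalk recruits the elongation factors to the large subunit: Rplp0 anchors it to the ribosome, and Rplp1 and Rplp2 bind to Rplp0 in pairs. Rplp0, on 22 probe sets, had log2 values of 11.86, 12.03 and 11.89 with shTdp-43-1 and 12.19, 12.22 and 12.23 with shTdp-43-2, against 12.17, 12.28 and 12.26 with shCont. The shTdp-43-1 arrays lay below all others, and those of shTdp-43-2 lay among the shCont arrays. Rplp0 fell to 80.9% of the shCont level with shTdp-43-1 (-0.31 ± 0.076 SE, limma adjusted p = 0.0432). With shTdp-43-2 its change was -0.02 ± 0.076 SE (adjusted p = 0.889), and the difference between the hairpins, 0.29, did not pass the test (0.0524). Of the 9 arrays, only shTdp-43-2 replicate 3 could be left out with the shTdp-43-1 call kept (adjusted p = 0.0495); without any other it was 0.0582 to 0.141. It was also lost with a dim filter at the 25th percentile or none (0.0504 and 0.0518), with centred arrays (0.0581), with both groups fitted alone (0.0731) and with medians of probe sets (0.178). Rplp1 had changes of -0.09 and -0.14 and Rplp2 of -0.13 and 0.05 with shTdp-43-1 and shTdp-43-2 (limma adjusted p = 0.339 to 0.780).

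Of the 19 small subunit genes 0 were called with either hairpin by limma, while before adjustment 7 were under 0.05 with shTdp-43-1, all of them negative, and 1 was with shTdp-43-2. Rps15a had the lowest change with shTdp-43-1. Its log2 values were 8.96, 9.18 and 9.08 with shTdp-43-1 and 9.15, 9.29 and 9.28 with shTdp-43-2, against 9.55, 9.25 and 9.58 with shCont. The shTdp-43-1 arrays lay below all shCont arrays, and the shTdp-43-2 arrays overlapped shCont replicate 2. The change was -0.38 ± 0.11 SE (limma adjusted p = 0.0638) with shTdp-43-1 and -0.22 ± 0.11 SE (0.219) with shTdp-43-2. Rps3, which lines the entry of the mRNA channel, had changes of -0.32 (limma adjusted p = 0.0789) and -0.16 (0.303). Rps6, the substrate of the S6 kinases, had changes of 0.00 and 0.06, with 95% intervals of -0.25 to 0.25 and -0.19 to 0.31. All other small subunit genes had changes between -0.27 and 0.05 with shTdp-43-1 and between -0.19 and 0.09 with shTdp-43-2.

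The paralogs were set beside the genes they resemble. Rps4y2, which RefSeq now calls Rps4l, resembles Rps4x, a protein of the small subunit. Rps4y2 had log2 values of 9.57, 9.46 and 9.07 with shTdp-43-1 and 9.52, 9.18 and 9.27 with shTdp-43-2, against 8.97, 8.68 and 8.61 with shCont. Every knockdown array lay above every shCont array. It rose 1.53-fold with shTdp-43-1 (0.61 ± 0.15 SE, limma adjusted p = 0.0422) and 1.48-fold with shTdp-43-2 (0.57 ± 0.15 SE, limma adjusted p = 0.0321). It rests on 3 probe sets. With shTdp-43-1 the call was kept only without shTdp-43-2 replicate 1 or shTdp-43-1 replicate 3, and was lost without any other array (adjusted p 0.0510 to 0.130). With shTdp-43-2 it was lost without shCont replicate 2 or 3 or shTdp-43-2 replicate 1 or 3 (0.0642 to 0.109). Without a dim filter the adjusted p was 0.104 and 0.178 with the hairpins, and with shTdp-43-1 the call was also lost with medians of probe sets (0.0785) and with both groups fitted alone (0.0595). Rps4x, in contrast, had values of 12.24, 12.36 and 12.33 with shTdp-43-1 and 12.37, 12.44 and 12.31 with shTdp-43-2, against 12.50, 12.50 and 12.55 with shCont. All 6 knockdown arrays lay below shCont, and the changes of -0.21 and -0.14 did not pass the test (limma adjusted p = 0.127 and 0.253).

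Rpl7l1 resembles Rpl7 of the large subunit. Rpl7l1 had log2 values of 10.68, 10.71 and 10.71 with shTdp-43-1 and 11.11, 11.21 and 11.05 with shTdp-43-2, against 10.68, 10.84 and 10.94 with shCont. The shTdp-43-2 arrays lay above all others, and those of shTdp-43-1 overlapped shCont. It rose 1.24-fold with shTdp-43-2 (0.31 ± 0.087 SE, limma adjusted p = 0.0412), and its change with shTdp-43-1 was -0.12 ± 0.087 SE (0.439). The call with shTdp-43-2 was kept without shCont replicate 3 (adjusted p = 0.0389) and lost without any other array (0.0524 to 0.151), with medians of probe sets (0.179) and with both groups fitted alone (0.0828). Rpl7 itself had changes of -0.21 with shTdp-43-1 and -0.02 with shTdp-43-2 (limma adjusted p = 0.209 and 0.906).

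Rpl22 and Rpl22l1 are a pair in which, in mice, loss of Rpl22 is known to raise Rpl22l1. Rpl22l1 read 8.05, 8.19 and 8.17 with shTdp-43-1 and 7.89, 7.87 and 7.93 with shTdp-43-2, against 7.90, 7.81 and 8.29 with shCont. Both hairpins overlapped shCont, whose replicate 3 stood apart from its other arrays, and the hairpins did not overlap each other. Its changes were 0.14 and -0.10 (limma adjusted p = 0.487 and 0.634), beside -0.39 and -0.10 for Rpl22. Rps27l, a p53 target in human and mouse cells, had changes of -0.15 with shTdp-43-1 and 0.17 with shTdp-43-2 (limma adjusted p = 0.414 and 0.331), and Rps27 had -0.13 and 0.09. Rpl3l, the form of striated muscle, had -0.13 and 0.00, with a gene value of 6.38 to 6.93 on every array, against a threshold of 6.07. Rpl3 read 12.53, 12.49 and 12.60 with shTdp-43-1 and 12.47, 12.58 and 12.43 with shTdp-43-2, against 12.63, 12.78 and 12.75 with shCont. Every knockdown array of Rpl3 lay below shCont, and neither -0.18 nor -0.23 passed the test (limma adjusted p = 0.203 and 0.0823). The testis paralogs Rpl10l and Rpl39l rest on 1 probe set each and had changes between -0.13 and 0.11, and Rpl39 had 0.10 and 0.13 (limma adjusted p of these 3 genes 0.491 to 0.878). Rpl10, which Rpl10l resembles, is not analysed here.

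The hairpins were also compared with each other, which is the test of whether a gene responded differently to them. Between them (shTdp-43-2 minus shTdp-43-1) 2 of 67 genes were called higher (2.99%, against 2.68% of all genes) and 0 lower (4.77% of all genes), and unadjusted p-values under 0.05 were 9 and 0. Rpl7l1, with the values above, was 0.42 ± 0.087 SE higher with shTdp-43-2 (limma adjusted p = 0.0200). Rps24, a small subunit protein needed to process the precursor of its rRNA, was 0.27 ± 0.071 SE higher with shTdp-43-2 (limma adjusted p = 0.0477). Rps24 had log2 values of 10.71, 10.74 and 10.68 with shTdp-43-1 and 10.92, 11.00 and 11.04 with shTdp-43-2, against 10.96, 10.91 and 10.99 with shCont. The shTdp-43-1 arrays lay below all others, while those of shTdp-43-2 spread around shCont. Against shCont its changes were -0.24 (adjusted p = 0.0769) and 0.03 (0.801). The Rps24 call was lost without any one array (0.0713 to 0.134), with a dim filter at the 25th percentile or none (0.0556 and 0.0564), with both hairpins fitted alone (0.125) and with medians of probe sets (0.594). The Rpl7l1 call was lost without any one of the shTdp-43-1 arrays (0.0565 to 0.0624) or without shTdp-43-2 replicate 1 or 2 (0.0679 and 0.0584), and with medians of probe sets (0.103).

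Over the 67 genes the median difference between the hairpins was 0.06, with 50 positive, against -0.04 over all genes and 0.01 over genes with a mean of 10 or more. Arrays of shTdp-43-2 lay above all shTdp-43-1 arrays in 13 genes (19.4%, against 9.84% of all genes) and below them in 1, Rpl22l1 (1.49%, against 15.2%).

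Probe sets of one gene were compared to see whether an exon moved apart from the rest of its gene, a question that bears on splicing. Such usage is the change of a probe set minus the mean change of the gene's other probe sets. It could be tested for 433 probe sets of 59 ribosomal protein genes, of 251689 in all. By limma's diffSplice 1 probe set was called higher with shTdp-43-1 (0.231%, against 0.249% of all) and 2 lower (0.462%, against 0.227%). With shTdp-43-2, 0 were called higher (0.521% of all were) and 3 lower (0.693%, against 0.695%). diffSplice gives every probe set of a gene the same spread. When each probe set kept its own spread, 0 of the 433 were called with either hairpin (0.00517% of all probe sets were called with shTdp-43-1 and 0.138% with shTdp-43-2), with 31 and 17 at an unadjusted p under 0.05. The probe sets below are therefore given by their values.

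Rps15a and Rpl13a each had a probe set called lower with shTdp-43-2. Rps15a probe set 5606861 read 8.67, 9.05 and 9.11 with shTdp-43-1 and 8.69, 9.04 and 8.86 with shTdp-43-2, against 9.99, 9.51 and 9.89 with shCont. Rpl13a probe set 5186100 read 10.32, 10.06 and 10.03 with shTdp-43-1 and 10.18, 9.95 and 10.10 with shTdp-43-2, against 10.91, 10.73 and 10.73 with shCont. In both, every knockdown array lay below every shCont array. The usage change of Rps15a 5606861 with shTdp-43-2 was -0.86 (diffSplice adjusted p = 0.0192, own spread 0.0528) and that of Rpl13a 5186100 was -0.64 (diffSplice adjusted p = 0.00955, own spread 0.109). With shTdp-43-1 they were -0.56 and -0.39 (diffSplice adjusted p = 0.401 and 0.475).

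Rps19bp1 had 2 probe sets called in opposite directions with shTdp-43-1. Its probe set 4437222 read 7.74, 7.84 and 7.97 with shTdp-43-1 and 8.42, 8.12 and 8.19 with shTdp-43-2, against 8.44, 8.49 and 8.50 with shCont, a usage change of -0.57 with shTdp-43-1 (diffSplice adjusted p = 0.0138, own spread 0.273). Its probe set 4842738 read 11.72, 11.47 and 11.39 with shTdp-43-1 and 11.52, 11.27 and 11.26 with shTdp-43-2, against 11.27, 11.33 and 11.00 with shCont, a usage change of 0.54 with shTdp-43-1 (diffSplice adjusted p = 0.0228, own spread 0.277). Rpl12 probe set 5318811 was low on the array, at 6.37, 6.25 and 6.51 with shTdp-43-1 and 7.02, 7.67 and 6.64 with shTdp-43-2, against 7.14, 6.94 and 7.39 with shCont (usage -0.67 with shTdp-43-1, diffSplice adjusted p = 0.00363, own spread 0.546). Rpl19 probe set 4703768 read 7.43, 7.33 and 7.25 with shTdp-43-1 and 6.17, 7.15 and 5.82 with shTdp-43-2, against 7.19, 7.56 and 7.30 with shCont (usage -0.87 with shTdp-43-2, diffSplice adjusted p = 0.0101, own spread 0.425). The shTdp-43-2 arrays of the Rpl19 probe set spread widely, with replicate 2 close to shCont.

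The genes that build the ribosome and control its mRNAs were read from lists. For comparison, 3.27% of all genes were called higher and 3.36% lower with shTdp-43-1 (median change 0.02), and 5.57% higher and 9.92% lower with shTdp-43-2 (median 0.00). Rpsa, the small subunit protein also known as the laminin receptor, was the one of 4 further ribosomal components measured, and its changes of -0.29 and -0.19 did not pass the test (limma adjusted p = 0.110 and 0.227). Of 17 translation factors and other genes of the TOP class, 0 rose and 2 fell with shTdp-43-1 (median change -0.14), and 0 rose and 4 fell with shTdp-43-2 (median -0.10). Eef1g, a subunit of the factor that reloads eEF1A with GTP, fell by 0.51 with shTdp-43-1 (adjusted p = 0.00389 in limma) and by 0.38 with shTdp-43-2 (0.00538). Eef1b2, another subunit of that factor, fell by 0.32 with shTdp-43-1 (adjusted p = 0.0351 in limma), and its change with shTdp-43-2 was -0.10 (0.437). Eif4b, a helper of the initiation helicase, fell by 0.54 with shTdp-43-2 (adjusted p = 0.00312 in limma). Hnrnpa1, a splicing regulator, fell by 0.51 with the same hairpin (0.00389). The changes of Eif4b and Hnrnpa1 with shTdp-43-1 were -0.05 and -0.14, and the difference between the hairpins passed the test for both (limma adjusted p = 0.0105 and 0.0303). Nap1l1, a histone chaperone, fell by 0.40 with shTdp-43-2 (limma adjusted p = 0.0150).

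**Figure D5:**
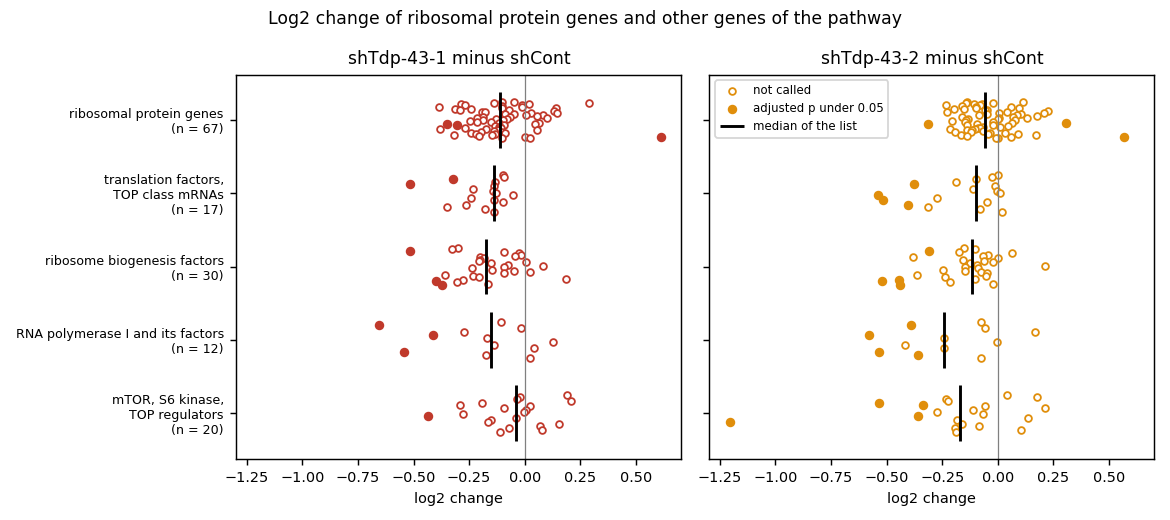
Log2 change of the ribosomal protein genes and of 4 lists of related genes with shTdp-43-1 (left) and shTdp-43-2 (right) relative to shCont. Each point is a gene, filled where its limma adjusted p was under 0.05, and black bars are list medians. Filled points of the 4 related lists all lie below 0.

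Of 30 ribosome biogenesis factors 0 rose and 3 fell with shTdp-43-1 (median change -0.17), and 0 rose and 4 fell with shTdp-43-2 (median -0.11). Dkc1, the pseudouridine synthase of rRNA, fell by 0.52 and 0.31 (limma adjusted p = 0.0116 and 0.0451). Wdr12, of the large subunit maturation complex with Pes1 and Bop1, fell by 0.37 and 0.44 (limma adjusted p = 0.0330 and 0.00785). Utp15, of the small subunit processome, fell by 0.40 and 0.52 (limma adjusted p = 0.0436 and 0.00737). Tsr1, a maturation factor of the small subunit, fell by 0.44 with shTdp-43-2 (adjusted p = 0.00785 in limma), and its change with shTdp-43-1 was -0.28 (0.0883).

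RNA polymerase I transcribes the rRNA precursor. Of 12 genes of the polymerase and its factors 0 rose and 3 fell with shTdp-43-1 (median change -0.15), and 0 rose and 4 fell with shTdp-43-2 (median -0.24). Polr1b, its second largest subunit, fell by 0.65 with shTdp-43-1 (adjusted p = 0.00821 in limma) and by 0.39 with shTdp-43-2 (0.0298). Polr1e fell by 0.41 and 0.58 (limma adjusted p = 0.0384 and 0.00428). Taf1d, of the promoter selectivity factor, fell by 0.54 and 0.53 (limma adjusted p = 0.0456 and 0.0276), and Tbp, the TATA-binding protein, fell by 0.36 with shTdp-43-2 (0.0282).

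Of 20 measured genes of the mTOR, S6 kinase and TOP regulators 0 rose and 1 fell with shTdp-43-1 (median change -0.04), and 0 rose and 4 fell with shTdp-43-2 (median -0.17). Mycn, a transcription factor of growth genes, fell by 0.44 and 0.36 (limma adjusted p = 0.0330 and 0.0390). Larp1, which binds the TOP sequence, fell by 0.34 with shTdp-43-2 (adjusted p = 0.0183 in limma), and its change with shTdp-43-1 was -0.29 (0.0563). Eif4ebp2, the brain's main inhibitor of the cap-binding protein, fell by 0.53 with shTdp-43-2 (limma adjusted p = 0.00736). Rps6ka3, a kinase of the ERK pathway that phosphorylates Rps6, fell by 1.21 with shTdp-43-2 (adjusted p = 0.000596 in limma). Its change with shTdp-43-1 was -0.16 (0.478), and the difference between the hairpins was -1.04 (0.00273). Rps6kb1, the S6 kinase downstream of mTOR, was lower with shTdp-43-2 than with shTdp-43-1 by 0.31 (limma adjusted p = 0.0403), and was called against shCont with neither. At an unadjusted p under 0.05 the genes higher with each hairpin numbered 0 in the translation factor and polymerase I lists and 1 in each of the biogenesis and mTOR lists. Max, the partner of the Myc proteins, was higher with shTdp-43-2 than with shTdp-43-1 by 0.30 (limma adjusted p = 0.0352).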

How the data were processed

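The deposited table holds exon-level log2 values, 1 per probe set and array. The authors made them with RMA (Affymetrix Expression Console, build mm9), per the labels' protocols and, for the build, per the submitters' processing notes; no version is given in the sources used here. RMA brings all arrays to one distribution, so a shift shared by most probes is largely removed. The table has 1256831 probe sets, of which the platform annotation gives 318760 one symbol, 6684 several and 931387 none. From the one-symbol probe sets, 253568 reached the median 9-array mean and were averaged into 20144 gene values (at least 1 probe set per gene). Symbols outside the ribosomal protein rule were updated through RefSeq names.

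All 9 arrays were fitted in one model with limma 3.58.1 (lmFit and eBayes, R 4.3.3, 6 residual degrees of freedom). Benjamini-Hochberg adjustment ran over all genes, with calls at an adjusted p under 0.05. Usage was tested with limma's diffSplice on genes with 2 or more probe sets, and again, an alternative chosen after seeing the data, with each probe set's own spread. The procedures were tried on simulated data with known changes, where diffSplice made false calls on probe sets with unequal spreads. An exact permutation test of 3 arrays against 3 cannot give a two-sided p below 0.1, so none was run. The number of arrays limits the precision.

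Named genes are the members called, the 3 highest and 3 lowest per hairpin, each paralog with the gene it resembles, and up to 4 called genes per pathway list and comparison, the one between the hairpins included. Rpl13a, Rps3, Rps6, Rplp1 and Rplp2, and the genes called with an intensity trend, were added after their values were seen. The members and lists were chosen with earlier results of these data known. Markers of oligodendrocytes, microglia and endothelium gave 0 calls with either hairpin in limma (before adjustment 1 endothelial marker was under 0.05 with each), and of cycling progenitors Nes rose with shTdp-43-2. Alternatives were other dim filters, at least 3 probe sets per gene, medians of probe sets, centring and quantile normalization of arrays, an intensity trend, the replicate block, the groups of a comparison alone, and leaving out each array.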

Additional observations from a re-analysis of the deposited data

Results flagged for a closer look

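Rpl7l1 differed between the hairpins themselves: it was 0.42 higher on the log2 scale with shTdp-43-2 than with shTdp-43-1 (limma adjusted p = 0.0200), and higher in 3 of 3 arrays against each of the other hairpin's. Rps24 was 0.27 higher with shTdp-43-2 than with shTdp-43-1 (limma adjusted p = 0.0477), again with no overlap of the arrays. Rps24 was called in 5 of 19 alternatives and Rpl7l1 in 13 of 19. In Rpl7l1 it is the shTdp-43-2 arrays that stand away from shCont, and in Rps24 the shTdp-43-1 arrays.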

How the results depend on the processing

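The median change of the 67 genes with shTdp-43-1 stayed negative under all alternatives run (-0.16 to -0.08 on leaving out 1 array), and with shTdp-43-2 it was 0.0070 with centred arrays, -0.031 after quantile normalization and -0.06 to -0.04 on leaving out 1 array. Counts of calls changed with the processing. With shTdp-43-1 the 3 calls became 7 with at least 3 probe sets per gene and with a dim filter set at the table's 75th percentile, 10 with an intensity trend, 1 without a dim filter and with medians of probe sets, and 0 when its arrays and shCont were fitted alone. With shTdp-43-2 the 3 calls became 5 after quantile normalization, 4 with an intensity trend, and 2 without a dim filter, with medians of probe sets and with those groups alone. Between the hairpins the 2 calls became 4 after quantile normalization and with an intensity trend, 1 with a filter set at its 25th percentile, without a filter and with those groups alone, and 0 with medians of probe sets. The causes of these moves were not tested. Leaving out 1 array gave 0 to 2 calls with shTdp-43-1 (lowest without shCont replicate 1 or 3 or shTdp-43-1 replicate 2), 0 to 2 with shTdp-43-2 (lowest without shCont replicate 2 or shTdp-43-2 replicate 1 or 3) and 0 to 1 between the hairpins. Usage calls ran from 0 to 3 with shTdp-43-1 (lowest without shTdp-43-1 replicate 2 or shCont replicate 3) and from 0 to 8 with shTdp-43-2 (lowest without its replicate 3, highest without its replicate 2), and were 0 and 0 with each probe set's own spread. Deviations of same-numbered arrays correlated above 0.1 in the 6 pairs of numbers 1 and 3 (up to 0.51) and not in those of number 2 (-0.29, -0.01 and 0.02). The highest correlation of all, 0.57, was between unlike numbers, shTdp-43-1 replicate 2 and shTdp-43-2 replicate 3. The labels name no shared source, and with not every pair above 0.1 the numbers were not taken to pair the arrays. With the replicate block Rpl7l1 alone was called between the hairpins (1 gene; Rps24 had an adjusted p of 0.0639), and the counts against shCont stayed at 3 and 3. Rpl8 was called in 11 of 19 alternatives with each hairpin, Rps4y2 in 9 with shTdp-43-1 and 14 with shTdp-43-2, and Tardbp in all 19 with both.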
